A study of Mus musculus with 8 samples.

Results

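Plasminogen activators, the urokinase receptor, hepatocyte growth factor (HGF), its receptor and a related receptor were examined. They are 6 genes of the 27179 in the deposited count table: Plat, Plau, Plaur, Hgf, Met and Mst1r. The genes were taken by symbol, matched to the Entrez Gene identifiers of the table, and all 6 were matched and retained by the filter on low counts. The 8 libraries hold RNA of cells sorted from lungs of C57BL/6 mice with a rearrangement of Eml4 and Alk (Eml4-Alk translocation in the labels), aged 18 to 22 weeks and 11 to 12 weeks after tumor induction. The rearrangement was made in the lung by an adenovirus carrying Cas9, so the mice hold tumors beside lung tissue that was not transformed. Every mouse had received 4.5 nmol of QZ1, a quenched Cy5 probe that becomes fluorescent when a protease cuts its linker, in a tail vein 2 h before the lungs were taken. Live cells without CD45 or CD11b staining were sorted by Cy5 into a QZ1-hi population (4 libraries, labelled QZ+) and a QZ1-lo population (4 libraries, labelled QZ-), with at least 100000 cells in each. Both populations came from mice with the same genotype label and the same probe, and healthy lungs were not analysed here. Which cells of a population carry the rearrangement was not tested. Libraries are numbered 1 to 4 within a population in the order of the sample list, and the numbers were not used to pair them, since neither the labels nor the study's methods tie a library to a mouse. If libraries of a population do not come from separate mice, the p-values measure a spread that may be technical.

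Plat encodes tissue plasminogen activator and Plau encodes urokinase, the serine proteases that cut plasminogen into plasmin, a protease that degrades fibrin and matrix proteins. Urokinase acts while bound to its receptor on the cell surface, which Plaur encodes. Hgf encodes a growth factor built like plasminogen, with kringle domains and a protease-like domain that has lost its catalytic activity, and it is secreted as a precursor that serine proteases, urokinase among them, can cut into the active form. Its receptor is the tyrosine kinase MET, and MST1R (RON) is the closely related kinase that binds macrophage-stimulating protein, the product of Mst1. In the lung, HGF is known as a mesenchymal and endothelial signal to epithelium, where MET is found.

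Total counts ranged from 18380918 to 26847938 per library, of which mitochondrial genes took 43.7% to 65.6% in QZ1-hi and 34.0% to 53.2% in QZ1-lo. Counts were scaled to CPM, counts per 1000000 of a library, with edgeR's TMM factors, and 3 counts, the lowest level taken as measured, came to between 0.0894 and 0.179 CPM per library for counting error only. Marker lists in the same scale describe the cell types in the populations and do not check the gate on Cy5. The 8 endothelial markers were all called higher in QZ1-hi and summed to 875 to 2030 CPM there and 56.2 to 257 CPM in QZ1-lo. Of 8 fibroblast markers, 7 were called higher, with sums of 1630 to 3170 CPM and 39.7 to 358 CPM. The 5 pan-epithelial markers were all called lower, with sums of 473 to 758 CPM in QZ1-hi and 1290 to 1760 CPM in QZ1-lo. None of the 11 immune markers was called, and they summed to 3100 to 6660 CPM and 2310 to 4470 CPM, although CD45 and CD11b had been gated against. Most of each sum was Lyz2, at 2700 to 5760 CPM in QZ1-hi and 1900 to 3760 CPM in QZ1-lo. Ptprc, the gene of CD45, was at 71.4 to 222 and 93.4 to 161 CPM. The sums are therefore mainly a measure of Lyz2.

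Of the 6 genes, 3 were called higher in the QZ1-hi population (Plat, Hgf and Mst1r) and 0 were called lower, at an adjusted p under 0.05 in edgeR's quasi-likelihood test over 15583 genes. Among all genes tested, 9.88% were called higher and 8.21% were called lower. Plau, Plaur and Met were not called, and their unadjusted p values were 0.217, 0.675 and 0.0337 (edgeR). With DESeq2 in place of edgeR the counts were likewise 3 and 0. The 6 genes had a median log2 fold change (log2FC, QZ1-hi over QZ1-lo) of 1.21, and all genes tested one of 0.02. For Plat, Hgf and Mst1r every QZ1-hi library lay above every QZ1-lo library, which was true of 11.9% of the genes tested (22.6% had no overlap in either direction). The other 3 genes overlapped between the populations. Bulk RNA cannot tell a change in the number of cells of a type from a change in RNA per cell.

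**Figure D1:**
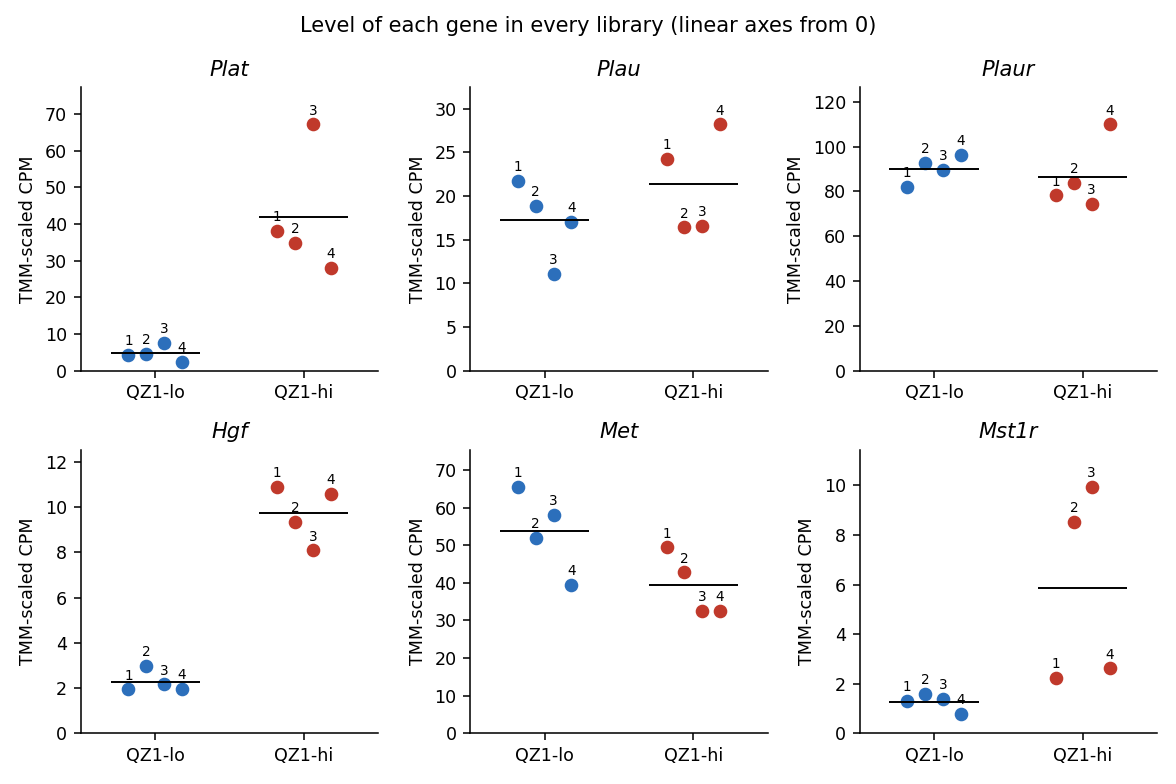
TMM-scaled CPM of the 6 genes in the 4 QZ1-lo (blue) and 4 QZ1-hi (red) libraries, with the library number beside each point and the mean of each population as a black line, on linear axes from 0. Plat, Hgf and Mst1r show no overlap between the populations, and QZ1-hi libraries 2 and 3 stand at 8.54 and 9.94 CPM for Mst1r against 2.25 and 2.62 CPM in libraries 1 and 4.

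The stretches before the RefSeq start of the genes are shown for the receptors and the ligand, on GRCm38.p6. Gene spans given below are those of GENCODE. For Met the RefSeq start, 17463957, lies inside the GENCODE span, which starts at 17463800, and so does the window shown. RefSeq promoters, from 250 bases before to 50 bases after the start, were matched for Plaur, Hgf, Met and Mst1r. The set used held no promoter of Plat, which was called, or of Plau, which was not. Called and uncalled genes are therefore not compared as groups. The motif TGANTCA, the core that AP-1 factors bind and the same on both strands, was found at 1 place in Plaur and 1 place in Met, and in 7.81% of 32851 promoters of that length. It was at 0 places in the promoters of Hgf and Mst1r. The motif was chosen after these sequences and the results had been seen. The windows below hold it in capitals, and lie on the plus strand at chr7:24462402-24462431 and chr6:17463891-17463920.
Plaur: aacccctggagcTGACTCActctttagcaa
Met: ctgttgcccggcTGAGTCAcgggccgggca

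For Hgf and Mst1r the bases from 120 to 21 before the start are given, on the plus strand at chr5:16553375-16553474 and chr9:107906769-107906868. Capitals mark GGGCGG on either strand, the core of a GC box, which overlaps no TGANTCA match here. It was at 2 places in this promoter of Mst1r and at 0 places in the promoters of Hgf, while 35.7% of all promoters held it. The promoters of Plaur and Met held 3 matches each, outside the windows shown. These matches describe letters and not binding.
Hgf: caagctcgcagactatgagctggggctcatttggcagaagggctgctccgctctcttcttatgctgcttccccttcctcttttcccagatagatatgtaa
Mst1r: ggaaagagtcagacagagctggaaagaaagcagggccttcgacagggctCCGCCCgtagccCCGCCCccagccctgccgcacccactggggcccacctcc

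Plat (Entrez Gene 18791, chr8:22757727-22782844 on GRCm38, 13 merged exons) was far higher in the QZ1-hi population. It was at 38.1, 34.8, 67.2 and 28.1 CPM in QZ1-hi libraries 1 to 4 and at 4.38, 4.68, 7.60 and 2.41 CPM in QZ1-lo libraries 1 to 4. The lowest QZ1-hi library was thus above the highest QZ1-lo library, and library 3 was the highest of each population. Its log2FC was 3.14 ± 0.36 (SE, edgeR, adjusted p = 0.000305), an 8.79-fold difference. QZ1-hi library 3 and QZ1-lo library 3 also had the highest sums of endothelial markers, 2030 and 257 CPM. They likewise had the highest sums of fibroblast markers, 3170 and 358 CPM, and of pericyte markers, 71.4 and 27.1 CPM. The part of any of these markers in the level of Plat was not tested. The 3 genes whose profile over the 8 libraries was most like that of Plat were Heg1, Fstl1 and Serpinf1, with a root mean square difference of 0.20, 0.22 and 0.22 in log2 CPM after each gene's mean was subtracted. Plat itself varied over the libraries with an SD of 1.77 in log2 CPM.

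Plau (Entrez Gene 18792, chr14:20836660-20843385, 11 merged exons), the other activator, was not called. Its levels were 24.2, 16.4, 16.6 and 28.2 CPM in QZ1-hi and 21.7, 18.9, 11.1 and 17.0 CPM in QZ1-lo. QZ1-hi libraries 2 and 3 lay within the range of QZ1-lo. This gave a log2FC of 0.31 ± 0.24 (SE, edgeR, adjusted p = 0.444), and it was -0.16 when counts were scaled by library size only. Ccdc69 and Bicra were among the genes with the profiles most like that of Plau, at 0.09 and 0.13 in the same measure.

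Plaur (Entrez Gene 18793, chr7:24462484-24475968, 6 merged exons), the urokinase receptor, had the highest level of the 6 genes per length in both populations and was not called. It was at 78.3, 83.9, 74.6 and 110 CPM in QZ1-hi and at 82.1, 92.8, 89.6 and 96.3 CPM in QZ1-lo. QZ1-hi libraries 1 and 3 were below every QZ1-lo library and QZ1-hi library 4 was above them all. In each population library 4 had the highest level of Plaur and the highest sum of immune markers, 6660 and 4470 CPM. Of these sums, Lyz2 alone made 5760 and 3760 CPM. The lowest immune sums, in QZ1-hi library 1 and QZ1-lo library 3, did not go with the lowest levels of Plaur. The part of immune cells was not tested. The difference was a log2FC of -0.06 ± 0.14 (SE, edgeR, adjusted p = 0.833). The profiles nearest to it, those of Actr2, Abcc5 and Rps12-ps10, differed by 0.07, 0.07 and 0.08, and the last of these is a pseudogene whose reads may be shared with a ribosomal protein gene.

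Hgf (Entrez Gene 15234, chr5:16553495-16620152, 19 merged exons), the ligand of MET, was called higher in QZ1-hi with little spread. Its levels were 10.9, 9.34, 8.09 and 10.6 CPM in QZ1-hi and 1.94, 2.97, 2.17 and 1.96 CPM in QZ1-lo. The populations lay far apart relative to their own ranges. The resulting log2FC was 2.11 ± 0.25 (SE, edgeR, adjusted p = 0.000346), or 4.30-fold. Within QZ1-hi, Hgf was highest in libraries 1 and 4, where the fibroblast markers had their lowest sums, 1700 and 1630 CPM, and lowest in library 3, where they had their highest, 3170 CPM. Between the populations Hgf and those markers were higher together, and the part of the markers was not tested. The nearest profiles were those of Rhobtb3, Cmah and Robo2, at 0.17, 0.26 and 0.28. A gene model on the same strand, Gm43489, covers 484 exonic bases of Hgf, and 6.02% of its 50-base stretches occur in another gene.

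Met (Entrez Gene 17295, chr6:17463800-17573980, 22 merged exons) was at 49.4, 42.8, 32.6 and 32.5 CPM in QZ1-hi and at 65.5, 52.0, 58.1 and 39.4 CPM in QZ1-lo. QZ1-lo library 4 fell within the range of QZ1-hi, and the other QZ1-lo libraries were above it. With these levels the log2FC was -0.45 ± 0.19 (SE, edgeR, adjusted p = 0.131). Scaling by library size only, under which the median over all genes went from 0.02 to -0.44, gave -0.90 and a call (adjusted p = 0.0279, against 0.0279 to 0.152 over the tools, scalings and filters tried). Med25, Ndufaf8 and Thbs1 had the nearest profiles, at 0.09, 0.11 and 0.12.

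Mst1r (Entrez Gene 19882, chr9:107906873-107920383, 18 merged exons) was called higher in QZ1-hi, where it had a wide spread between libraries. It was at 2.25, 8.54, 9.94 and 2.62 CPM in QZ1-hi, from 53, 173, 172 and 44 counts, and at 1.31, 1.59, 1.38 and 0.778 CPM in QZ1-lo, from 44, 39, 38 and 19 counts. QZ1-hi libraries 2 and 3 stood well above the other two, which were themselves above every QZ1-lo library. The fitted log2FC was 2.20 ± 0.52 (SE, edgeR, adjusted p = 0.0132), or 4.60-fold. Without QZ1-hi library 3 it was 1.80 and was not called (adjusted p = 0.0531, against 0.00644 to 0.0531 over the libraries left out), and limma-voom gave 1.94 (adjusted p = 0.0527). QZ1-hi libraries 2 and 3 also had the highest sums of fibroblast markers, 2860 and 3170 CPM against 1700 and 1630 CPM in libraries 1 and 4. Ciliated cell markers, which were lower in QZ1-hi than in QZ1-lo, had their highest QZ1-hi sums there too. These were 141 and 120 CPM, against 56.2 and 86.1 CPM in libraries 1 and 4. The part of either list was not tested. Egfr, Olfml2b and Entpd2 had the profiles most like that of Mst1r, at 0.39, 0.41 and 0.43, wider than for any of the other 5 genes. RefSeq also gives a second start inside Mst1r at position 107915003, and likewise one inside Hgf at position 16553901. The counts, which are per gene, do not separate the transcripts.

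**Figure D2:**
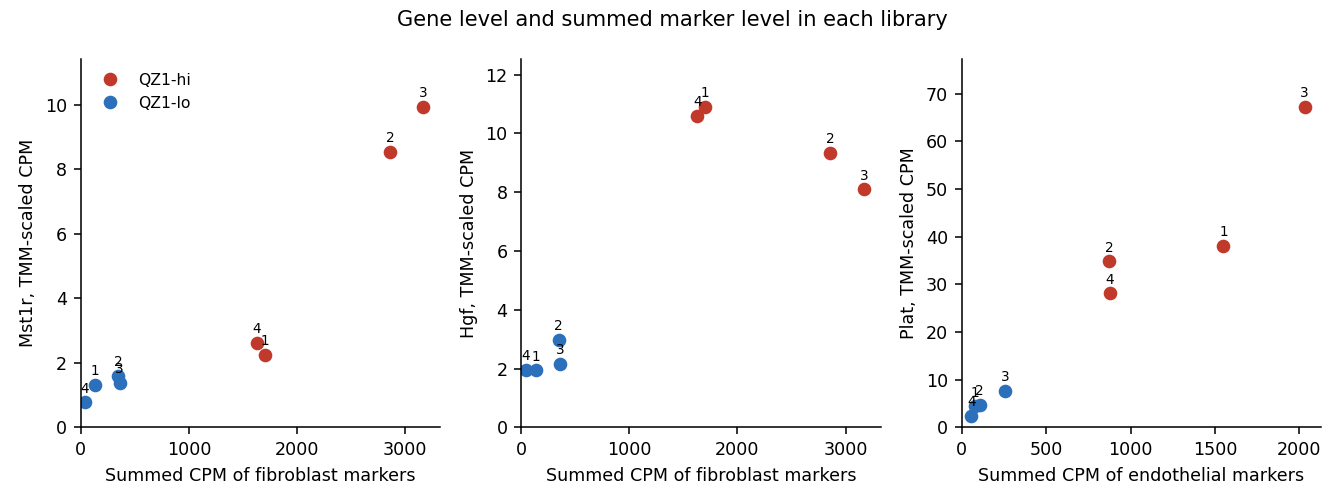
Each point is a library, numbered, with QZ1-lo in blue and QZ1-hi in red. The summed TMM-scaled CPM of a marker list is on the horizontal axis and the CPM of Mst1r, Hgf or Plat on the vertical axis. Within QZ1-hi, Mst1r was highest and Hgf lowest in the libraries with most fibroblast marker RNA (2860 and 3170 CPM). Plat was highest in the library with most endothelial marker RNA (2030 CPM), which also had the most fibroblast marker RNA (3170 CPM).

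Levels of different genes were compared as CPM per kilobase of merged exon. In QZ1-hi the order of the mean levels was Plaur at 33.1 ± 6.02, Plau at 9.03 ± 2.47, Plat at 6.74 ± 2.77, Met at 5.12 ± 1.08, Hgf at 1.35 ± 0.179 and Mst1r at 1.17 ± 0.794 (SD, n = 4 libraries each). The ranges of Plau and Plat, of Plat and Met, and of Hgf and Mst1r overlapped, so these neighbors in the order did not differ beyond their spread. In QZ1-lo the order was Plaur at 34.5 ± 2.31, Plau at 7.26 ± 1.89, Met at 7.0 ± 1.44, Plat at 0.764 ± 0.343, Hgf at 0.315 ± 0.0674 and Mst1r at 0.252 ± 0.0687. Plat was here below Met in every library, while Plau and Met overlapped. Plat and Hgf, and Hgf and Mst1r, also overlapped in range, although the first of each pair was the higher in all 4 libraries.

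The count of one gene divided by that of another in the same library does not depend on how libraries are scaled. The pairs were chosen after the levels had been seen. These ratios rest on the same counts as the fold changes and were not tested. There were 4.53, 4.58, 4.01 and 3.06 Met counts for each Hgf count in QZ1-hi libraries 1 to 4, and 33.5, 17.4, 26.5 and 19.9 in the QZ1-lo libraries. The log2 ratio of Hgf to Met averaged -2.0 ± 0.27 in QZ1-hi and -4.56 ± 0.42 in QZ1-lo (SD, n = 4 each), with no overlap. Receptor counts thus exceeded ligand counts in all 8 libraries, by a smaller margin in QZ1-hi.

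Between the receptors, there were 21.8, 5.00, 3.27 and 12.3 Met counts for each Mst1r count in QZ1-hi and 49.4, 32.4, 41.7 and 49.4 in QZ1-lo, again with no overlap. Between the activators, the ratio of Plat to Plau counts was 1.57, 2.12, 4.05 and 0.994 in QZ1-hi and 0.202, 0.249, 0.685 and 0.143 in QZ1-lo. Plat counts therefore outnumbered Plau counts in 3 of 4 QZ1-hi libraries and in none of the QZ1-lo libraries. These counts are not corrected for length, and Plat has 6241 exonic bases where Plau has 2367. Per kilobase, Plau was above Plat in 3 of 4 QZ1-hi libraries. The log2 ratio of Plau to its receptor Plaur averaged -2.04 ± 0.28 and -2.43 ± 0.45 (SD, n = 4 each) and overlapped between the populations.

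**Figure D3:**
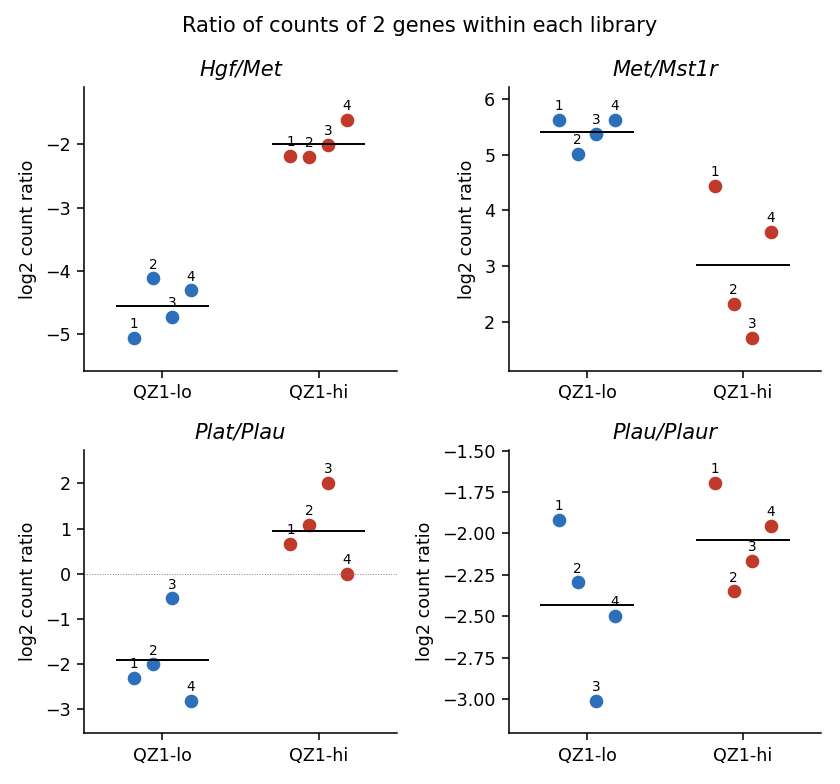
Log2 of the ratio of the counts of 2 genes in each library, for 4 pairs, with QZ1-lo in blue, QZ1-hi in red, library numbers beside the points and population means as black lines. The populations do not overlap for Hgf/Met, Met/Mst1r and Plat/Plau, and they overlap for Plau/Plaur.

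Other genes of the plasminogen system were described from a list of 15, of which 9 passed the filter on low counts. Of these 9, 2 were called higher (Lrp1 and Mrc2), 0 were called lower and 7 were not called, beside 9.88% and 8.21% of all genes tested called higher and lower. The median log2FC of the 9 was 0.19, beside 0.02 over all genes tested. By other tools, DESeq2 and limma-voom each called 1 gene of the list lower, Anxa2. Plg, the plasminogen gene, had 9 counts in QZ1-lo library 1 and 0 in each of the other 7 libraries. Serpini1, Serpinf2, Cpb2, Vtn and F12 did not pass the filter either and had at most 34 counts in any library. Plasminogen is made mainly in the liver and reaches tissues through the blood.

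Among the inhibitors, Serpine2, which encodes protease nexin-1, had a log2FC of 0.65 ± 0.33 (SE, edgeR, adjusted p = 0.229). Without QZ1-hi library 1, which was at 102 CPM beside 32.0 to 50.7 CPM in the other QZ1-hi libraries, it was 0.16. Serpinb2, which encodes an inhibitor of urokinase, was near 1 CPM in both populations, at 0.900 ± 0.830 and 0.852 ± 0.503 CPM (SD, n = 4).

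Lrp1, the endocytic receptor that clears plasminogen activators bound to their inhibitors, went from 204 ± 51.7 CPM in QZ1-lo to 527 ± 99.8 CPM in QZ1-hi (SD, n = 4), a log2FC of 1.37 ± 0.21 (SE, edgeR, adjusted p = 0.0011). Mrc2, a collagen receptor that associates with the urokinase receptor, had a log2FC of 0.88 ± 0.22 (SE, edgeR, adjusted p = 0.0173) with QZ1-hi library 4 and QZ1-lo library 1 both at 31.9 CPM. Its call was lost without QZ1-hi library 3 (0.80, adjusted p = 0.0541), without QZ1-lo library 2 (0.79, adjusted p = 0.0542) and with library size only (0.43, adjusted p = 0.322). The genes for plasminogen binding at the cell surface were not called. Among them, Anxa2 was at 292 to 338 CPM in QZ1-hi and at 361 to 416 CPM in QZ1-lo without overlap, with a log2FC of -0.28 ± 0.11 (SE, edgeR, adjusted p = 0.104). S100a10, whose product pairs with annexin A2, had a log2FC of 0.19 (SE 0.12), and Plgrkt one of 0.32 (SE 0.27). Both turned negative with library size only.

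All 27 other genes listed for the HGF-MET system passed the filter. Of these, 3 were called higher (Nrp1, Plcg1 and Pik3r1), 8 were called lower and 16 were not called. The share called higher was near the 9.88% of all genes tested. The median log2FC was -0.07, beside 0.02 over all genes tested. The 8 lower genes were St14, Spint1, Spint2, Plxnb1, Plxnb2, Itgb4, Sdc1 and Lrig1. Their count, 8 of 27, beside the 8.21% of all genes called lower, stands with the 5 pan-epithelial markers, which were also all lower in QZ1-hi, at log2FC values from -1.5 for Krt8 to -0.90 for Nkx2-1. The alveolar type 2 markers did not share that direction, with 2 of 7 called higher and 0 lower. The part of epithelial cells in these values was not tested.

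St14 encodes matriptase, a membrane serine protease that can activate HGF and urokinase. It was at 65.5, 53.2, 32.1 and 42.4 CPM in QZ1-hi and at 135, 103, 148 and 106 CPM in QZ1-lo, a log2FC of -1.35 ± 0.21 (SE, edgeR, adjusted p = 0.00134). Its inhibitors were lower with it. Spint1, which encodes the HGF activator inhibitor HAI-1, was at 29.3 ± 6.01 CPM in QZ1-hi and 66.9 ± 4.00 CPM in QZ1-lo (SD, n = 4), a log2FC of -1.19 (SE 0.15). For Spint2, which encodes HAI-2, the log2FC was -0.91 (SE 0.20). Hgf, in the same libraries, was higher in QZ1-hi, so that there were 2.64 to 3.29 Spint1 counts for each Hgf count in QZ1-hi and 21.9 to 37.1 in QZ1-lo.

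The remaining proteases known to activate HGF were not called. Hgfac, the HGF activator of plasma, was at 2.33 ± 0.756 and 2.20 ± 1.09 CPM, and Hpn, which encodes hepsin, at 9.90 ± 2.96 and 9.39 ± 2.56 CPM in QZ1-hi and QZ1-lo (SD, n = 4). Tmprss13 had a log2FC of -1.04 ± 0.65 (SE, edgeR, adjusted p = 0.338). Mst1, the ligand gene of MST1R, was scarce, with 29, 0, 6 and 5 counts in QZ1-hi and 55, 16, 45 and 83 counts in QZ1-lo. Its log2FC of -1.93 ± 0.93 (SE, edgeR, adjusted p = 0.202) did not pass the test, and it was -3.09 without QZ1-hi library 1 (adjusted p = 0.0724, against 0.0724 to 0.433 over the libraries left out, edgeR). Its exons overlap those of Rnf123 on the opposite strand by 195 bases.

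**Figure D4:**
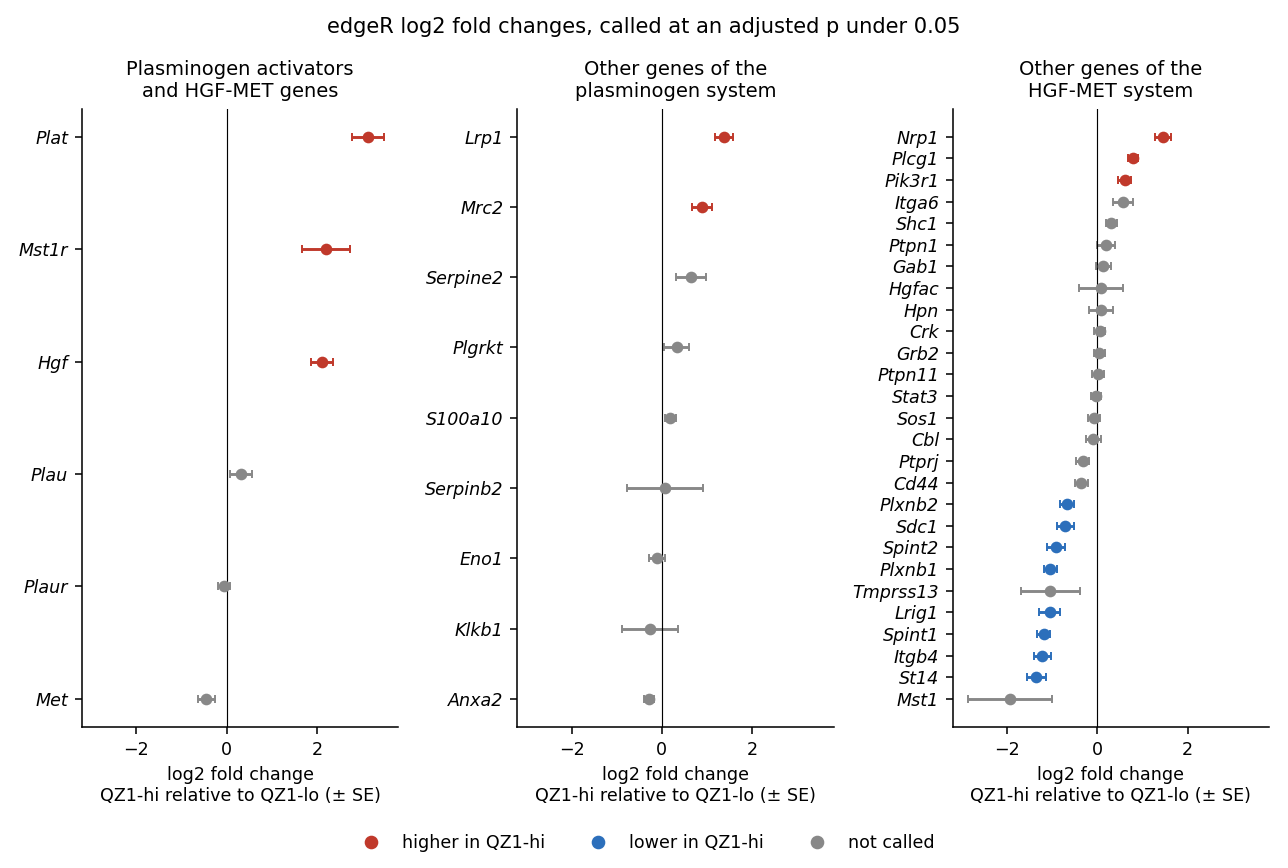
Log2FC values (edgeR, QZ1-hi relative to QZ1-lo) with SE as bars, for the 6 genes, the 9 tested genes of the plasminogen system and the 27 of the HGF-MET system. Red points were called higher and blue points lower at an adjusted p under 0.05, and gray points were not called. Plat has the highest value, 3.14, and St14 the lowest among the called genes, -1.35.

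Among the partners of the receptors, Nrp1, a co-receptor of endothelial cells that also binds HGF, went from 75.7 ± 12.1 CPM in QZ1-lo to 207 ± 43.8 CPM in QZ1-hi (SD, n = 4), a log2FC of 1.45 ± 0.17 (SE, edgeR, adjusted p = 0.000397). Plexins that can pair with MET and RON were lower, with log2FC values of -1.04 (SE 0.15) for Plxnb1 and -0.67 (SE 0.15) for Plxnb2. Itgb4, the integrin chain of epithelial hemidesmosomes, had a log2FC of -1.22 (SE 0.19), while Itga6, the chain it pairs with and which is also found in endothelium, was not called at 0.56 ± 0.22 (SE, edgeR, adjusted p = 0.11). Sdc1, a heparan sulfate proteoglycan that binds HGF, had a log2FC of -0.71 ± 0.20 (SE, edgeR, adjusted p = 0.0275), with a call that was lost in 5 of the 8 fits without 1 library. Cd44, which presents HGF to MET and was stained in the sort, was at 340 ± 71.4 CPM in QZ1-hi and 434 ± 30.9 CPM in QZ1-lo (SD, n = 4) and was not called by edgeR (log2FC -0.35, adjusted p = 0.139). It was called lower by limma-voom (adjusted p = 0.0403). In edgeR, scaling by library size only gave a lower call too (adjusted p = 0.0146), as did leaving out QZ1-hi library 4 (adjusted p = 0.0189). Itga6 was called higher without that library (0.74, edgeR, adjusted p = 0.0245).

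Of the signaling genes downstream of the receptors, most were not called. Gab1, Grb2, Sos1, Ptpn11, Crk and Stat3, which carry the MET signal in the cell, had log2FC values between -0.07 and 0.13 and none was called. Of this group, Plcg1 was higher with a log2FC of 0.79 ± 0.12 (SE, edgeR, adjusted p = 0.000972) and Pik3r1 by 0.61 ± 0.14 (SE, edgeR, adjusted p = 0.0116), both without overlap and both without a call under library size only. Shc1 had no overlap between the populations but was not called, at 0.31 ± 0.11 (SE, edgeR, adjusted p = 0.0897). Of the negative regulators, Lrig1 was lower with a log2FC of -1.05 ± 0.24 (SE, edgeR, adjusted p = 0.00956), and Cbl, Ptprj and Ptpn1 were not called, although Ptprj was lower with library size only (-0.81, edgeR, adjusted p = 0.0261). Exons of Anxa2, Plxnb1, Itgb4, Plcg1, Gab1, Stat3 and Lrig1 overlap a gene on the opposite strand, and the strand setting of the counting is not given in the sources used here.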

How the data were processed

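RNA of 8 sorted lung cell populations was sequenced as stranded total RNA. The authors deposited a table of raw gene counts with 27179 Entrez Gene identifiers. Per the labels the build was mm10 and DESeq2 was used. The authors counted reads per gene with Rsubread. The aligner and the strand setting of the counting are not given in the sources used here. Symbols came from RefSeq and gene tables (25293 identifiers matched), and exon lengths and positions from GENCODE M21 on GRCm38. Counts were filtered with filterByExpr (15583 genes tested), scaled by TMM and tested with edgeR 4.0.16 (quasi-likelihood, 4 against 4 libraries, no covariate, Benjamini-Hochberg over all genes tested, called at 0.05) in R 4.3.3. The SE was taken from each estimate and its F statistic. The scripts were tested on simulated data. There edgeR called 118 of 200 genes that had been changed, by differing amounts, and 10 that had not. A gene that was not called may therefore still differ. Alternatives were DESeq2 1.42.0, limma-voom 3.58.1 with quality weights, other scalings and filters, and leaving out each library. Count ratios had 0.5 added to each count. The 6 genes, the lists and the markers were chosen with earlier results of these data known. The text names the 6 genes, genes of both lists, markers set beside them, and for each of the 6 the 3 tested genes with the most similar profile. 1 further plasminogen gene, beyond the 15 described, and 1 of the similar genes are not reported here. No protein sequences were used here.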

Additional observations from a re-analysis of the deposited data

Results flagged for a closer look

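In 4 of the 94 groups of 4 libraries examined, 1 library lay far from the other 3 by Dixon's criterion, which chance alone gives in about 1 group in 20. Ptpn11 was at 60.4 CPM in QZ1-hi library 4 and at 77.1 to 77.9 CPM in the other QZ1-hi libraries. QZ1-lo library 4 had 118 CPM of Ptpn1, and the rest of that population had 80.6 to 85.1 CPM. In QZ1-lo library 3, Klkb1 was at 2.03 CPM (others 0.656 to 0.778 CPM) and Tmprss13 was at 4.23 CPM (others 1.46 to 1.59 CPM). Of the 50-base stretches of Klkb1, 42.7% also occur elsewhere, mostly in Gm45753, so its reads are uncertain.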

How the results depend on the processing

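The calls of Plat and Hgf were kept in all 8 fits without 1 library and under all 7 other alternatives, with log2 fold changes from 2.71 to 3.45 and from 1.67 to 2.26. Mst1r was also not called at an adjusted p under 0.01 (edgeR). With library size only, the calls over all genes were 882 higher and 2509 lower, so that 26.0% of calls were higher against 54.6% with TMM. Under that scaling 1 of the 6 genes (Met) was called lower, the plasminogen list had 1 gene higher and 1 lower, and the HGF-MET list had 1 higher. The stricter threshold of 0.01 left 902 higher and 665 lower calls, with 1 higher in the plasminogen list. DESeq2 and limma-voom each gave 1 lower gene in the plasminogen list (Anxa2). Leaving out 1 library gave 1136 to 1506 genes higher and 938 to 1201 lower, 2 to 3 of the 6 genes higher and 0 lower, 1 to 2 higher and 0 lower in the plasminogen list, and 3 to 4 higher and 7 to 8 lower in the HGF-MET list. Signs turned only for genes that were not called. With library size only, the log2 fold change was -0.16 for Plau, -0.41 for Serpinb2, -0.19 for Plgrkt, -0.29 for S100a10, -0.35 for Hgfac, -0.31 for Hpn, -0.36 for Gab1, -0.42 for Grb2, -0.14 for Shc1, -0.43 for Ptpn11, -0.39 for Crk and -0.32 for Ptpn1. With limma-voom it was -0.52 for Serpinb2. Without 1 library, the range was -0.565 to 0.49 for Serpinb2, -0.23 to 0.0029 for Eno1, -0.46 to 0.26 for Klkb1, -0.18 to 0.32 for Hgfac, -0.12 to 0.26 for Hpn, -0.029 to 0.10 for Grb2, -0.061 to 0.13 for Ptpn11, -0.041 to 0.13 for Crk and -0.079 to 0.015 for Stat3. The cause was not tested. Depth limits the low genes most: Mst1r rests on 19 to 44 counts in each QZ1-lo library. No paired analysis was possible because the labels give no replicate numbers and tie no library to a mouse. QZ1-hi and QZ1-lo cells were both sorted from lung suspensions, so a library of each may share a mouse. The unpaired test leaves such pairing out, and its SE values and calls could differ with it.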

Other observations

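The other marker lists gave these sums of CPM. Pericyte markers (2 of 7 called higher, 0 lower) were at 44.9 to 71.4 CPM in QZ1-hi and 10.4 to 27.1 CPM in QZ1-lo. Smooth muscle markers (3 of 6 called higher, 1 lower) were at 48.1 to 94.4 and 12.4 to 26.3 CPM. Mesothelial markers (4 of 4 called higher) were at 38.4 to 268 and 5.93 to 36.5 CPM. Among epithelial lists, alveolar type 2 markers (2 of 7 called higher, 0 lower) were at 5530 to 10300 and 3830 to 6250 CPM. Alveolar type 1 markers (1 of 6 called higher, 4 lower) were at 560 to 820 and 986 to 1210 CPM. Club cell markers (3 of 4 called lower) were at 342 to 1020 and 1410 to 4050 CPM, and ciliated cell markers (5 of 5 called lower) at 56.2 to 141 and 199 to 434 CPM. Erythroid markers (0 of 3 called) were at 61.9 to 472 and 131 to 1460 CPM.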
